A study of Mus musculus with 15 samples.

Results

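The genes described here are 34 members of the ATF4 and amino acid stress response, read from a table of 37310 genes in mouse embryonic stem cells. They were chosen by symbol for their known roles, with earlier results of these data known, as transcription factors of the response, effectors, amino acid synthesis enzymes, amino acid transporters and cytosolic tRNA synthetases. A symbol carried by several rows was read from its most abundant row. All 34 members were in the table, and all 34 passed the filter on low counts in every comparison.

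RNA was sequenced from J1 cells, a mouse embryonic stem cell line, grown in serum with the cytokine LIF and with added glutamine and non-essential amino acids. The Taf experiment held 3 libraries each of cells labelled as Taf5l knockout (Taf5l-KO), Taf6l knockout (Taf6l-KO) and wild type (WT-Taf), and the Myc experiment held 3 libraries each of cells labelled as c-Myc knockout (cMyc-KO) and of their own wild type (WT-Myc). The proteins TAF5L and TAF6L belong to SAGA, a complex that acetylates histones and helps activators switch on genes, while c-MYC binds DNA and drives genes for growth. Each knockout was set against the wild type of its own experiment, so Taf5l-KO and Taf6l-KO share their 3 controls. The descriptions of the cMyc-KO libraries share the code MycC5, which the labels leave unexplained, and no label says how any knockout was made or whether the libraries of a group came from separate cultures or clones. The spread behind each p-value is therefore that among the libraries at hand, and it may be technical.

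ATF4 is a transcription factor whose protein is made mainly when phosphorylation of eIF2, by kinases such as GCN2 under amino acid shortage or PERK under endoplasmic reticulum stress, slows general translation. It binds C/EBP-ATF composite elements together with C/EBP family partners and raises genes that import, make and charge amino acids, along with feedback regulators such as TRIB3. Because ATF4 is controlled largely at translation, its RNA level is not a measure of its protein.

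Promoter sequences are shown because ATF4 reaches its targets through such elements. The word TGATGNAA was searched on both strands in the 250 bases before each RefSeq start site (GRCm38.p6), a build other than the mm9 named for the deposited files. It was found in 9 of the 27 members with an entry (33.3%), against 1056 of 27025 genes (3.91%) and 1134 of 32851 promoters (3.45%) in the whole table. Since the members were chosen as known genes of the ATF4 response, their larger share is not an independent result. Cars, Lars, Mars, Nars, Slc7a3, Slc7a5 and Wars had no entry. The 6 stretches below are from members that carried the word and rose, fell or passed no test in cMyc-KO, written 5′ to 3′ along the gene's strand with the matched word in capitals, as TGATGNAA or as its reverse complement.
Asns, chr6:7693210-7693268, minus strand: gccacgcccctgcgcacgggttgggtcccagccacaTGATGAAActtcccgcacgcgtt
Pycr1, chr11:120643808-120643887, minus strand: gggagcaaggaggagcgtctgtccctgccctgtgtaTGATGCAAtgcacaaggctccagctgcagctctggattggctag
Chac1, chr2:119351013-119351092, plus strand: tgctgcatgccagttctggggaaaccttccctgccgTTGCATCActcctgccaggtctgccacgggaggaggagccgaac
Atf3, chr1:191183400-191183479, minus strand: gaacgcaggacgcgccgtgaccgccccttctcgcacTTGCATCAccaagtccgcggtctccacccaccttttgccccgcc
Aars, chr8:111033694-111033773, plus strand: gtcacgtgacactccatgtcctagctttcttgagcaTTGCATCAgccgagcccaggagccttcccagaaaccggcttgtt
Slc7a11, chr3:50443617-50443715, minus strand: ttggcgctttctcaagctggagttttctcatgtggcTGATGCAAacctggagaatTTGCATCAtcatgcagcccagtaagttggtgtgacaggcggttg

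Slc7a11 held 2 matches, on opposite strands, and Gars, Tars and Vldlr are the members with the word that are not shown. In cMyc-KO, Asns and Pycr1 rose, Chac1 and Atf3 fell, and Aars and Slc7a11 did not pass the test. In Taf6l-KO, 6 of the 9 members with the word and 14 of the 18 without it fell, beside 18.2% of all genes. A match is a description of the letters and does not show a bound site.

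Total counts per library ran from 14935631 to 27650813, and levels are given in CPM, the count per 1000000 of the TMM-scaled library size. The gene targeted in a knockout was below wild type in all 3 of its libraries, with log2 fold changes of -1.02 (Taf5l), -1.99 (Taf6l) and -1.20 (Myc), and Myc also fell in Taf5l-KO (-0.69) and in Taf6l-KO (-0.83). All 10 pluripotency markers were above 1 CPM in every group. Their sum was 4695 to 4808 CPM in Taf5l-KO and 4641 to 4733 in Taf6l-KO, below the 5321 to 5414 of WT-Taf, and 7243 to 7549 in cMyc-KO, above the 6656 to 6846 of WT-Myc. In all groups the fibroblast genes Dcn, Lum and Twist2 were at 0 counts. The 10 fibroblast markers still summed to 49.2 to 52.5 CPM in Taf5l-KO, 44.5 to 46.5 in Taf6l-KO and 44.3 to 48.1 in WT-Taf. Those sums were 61.0 to 72.2 CPM in cMyc-KO and 72.7 to 76.2 in WT-Myc. Most of each sum was Fbln1, with means of 46.1, 39.3, 36.2, 61.0 and 67.3 CPM in the same order. Trophectoderm markers summed to 29.0 to 32.0 CPM in Taf5l-KO and 32.1 to 35.2 in Taf6l-KO against 26.6 to 28.0 in WT-Taf, and to 46.0 to 51.0 in cMyc-KO against 26.3 to 29.0 in WT-Myc. The higher sums came mostly from the keratin genes Krt8 and Krt18. The mean of Gata3 was also higher in every knockout than in its wild type, while those of Cdx2 and Eomes were lower in every knockout. The means of Elf5 and Krt7 were higher only in Taf6l-KO. Neuroectoderm markers summed to 54.4 to 59.2 CPM in Taf5l-KO and 65.8 to 70.4 in Taf6l-KO against 83.7 to 87.6 in WT-Taf, and to 80.4 to 93.9 in cMyc-KO against 115.7 to 123.0 in WT-Myc. In the Taf experiment that lower sum came from Tubb3, while the means of Pax6 and Nes were higher in both Taf knockouts than in WT-Taf. Their part in the results below was not tested. Small non-coding RNAs took 1.09% to 1.81% of counts in the Taf libraries and 0.0195% to 0.0551% in the Myc libraries, although the labels give a single protocol, so levels are compared within an experiment. In cMyc-KO, replicate 3 stood apart. Its counts differed from those of the other replicates by chi-square values, divided by the degrees of freedom, of 36.4 and 26.3. Those replicates differed from each other by 5.07. By the same measure Taf5l-KO libraries differed by 9.60 to 14.1, against 2.69 to 6.92 in Taf6l-KO and 2.68 to 3.61 in WT-Taf. WT-Myc replicate 3 differed from the others of its group by 9.32 and 7.65, and those from each other by 3.47.

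The response genes moved to different extents in the 3 knockouts, and most changes were small. In Taf5l-KO, 5 of 34 members rose and 11 fell, beside 17.4% and 15.9% of all genes tested. In Taf6l-KO, 1 rose and 26 fell, beside 19.1% and 18.2%. In cMyc-KO, 2 rose and 11 fell, beside 15.2% and 19.5%. Values after ± are standard errors unless an SD is named. The median log2 fold change of the members was -0.063 in Taf5l-KO, -0.19 in Taf6l-KO and -0.13 in cMyc-KO, where the medians of all genes were 0.00054, 0.020 and -0.0018. A member rose or fell here where it had an adjusted p (edgeR quasi-likelihood test, Benjamini-Hochberg over all genes) under 0.05. In whole cultures, fewer cells of a kind and less RNA per cell cannot be told apart.

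The counts depend on scaling, test and single libraries. With plain library totals, 17 members fell in Taf6l-KO, and the calls of Asns, Cebpb, Cebpg, Eprs, Lars, Mars, Psph, Sesn2 and Tars were lost. That scaling moved the median of all genes from 0.020 to 0.088 and the share of rises among all calls from 51.2% to 69.0%. The cMyc-KO count of falls went from 11 to 7 without WT-Myc replicate 2, and its count of rises from 2 to 4 without cMyc-KO replicate 3. A limma test on the deposited FPKM, with a pseudocount of 1, called 5 falls in Taf5l-KO and 6 in cMyc-KO. No called member took the opposite sign in any alternative run.

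**Figure D1:**
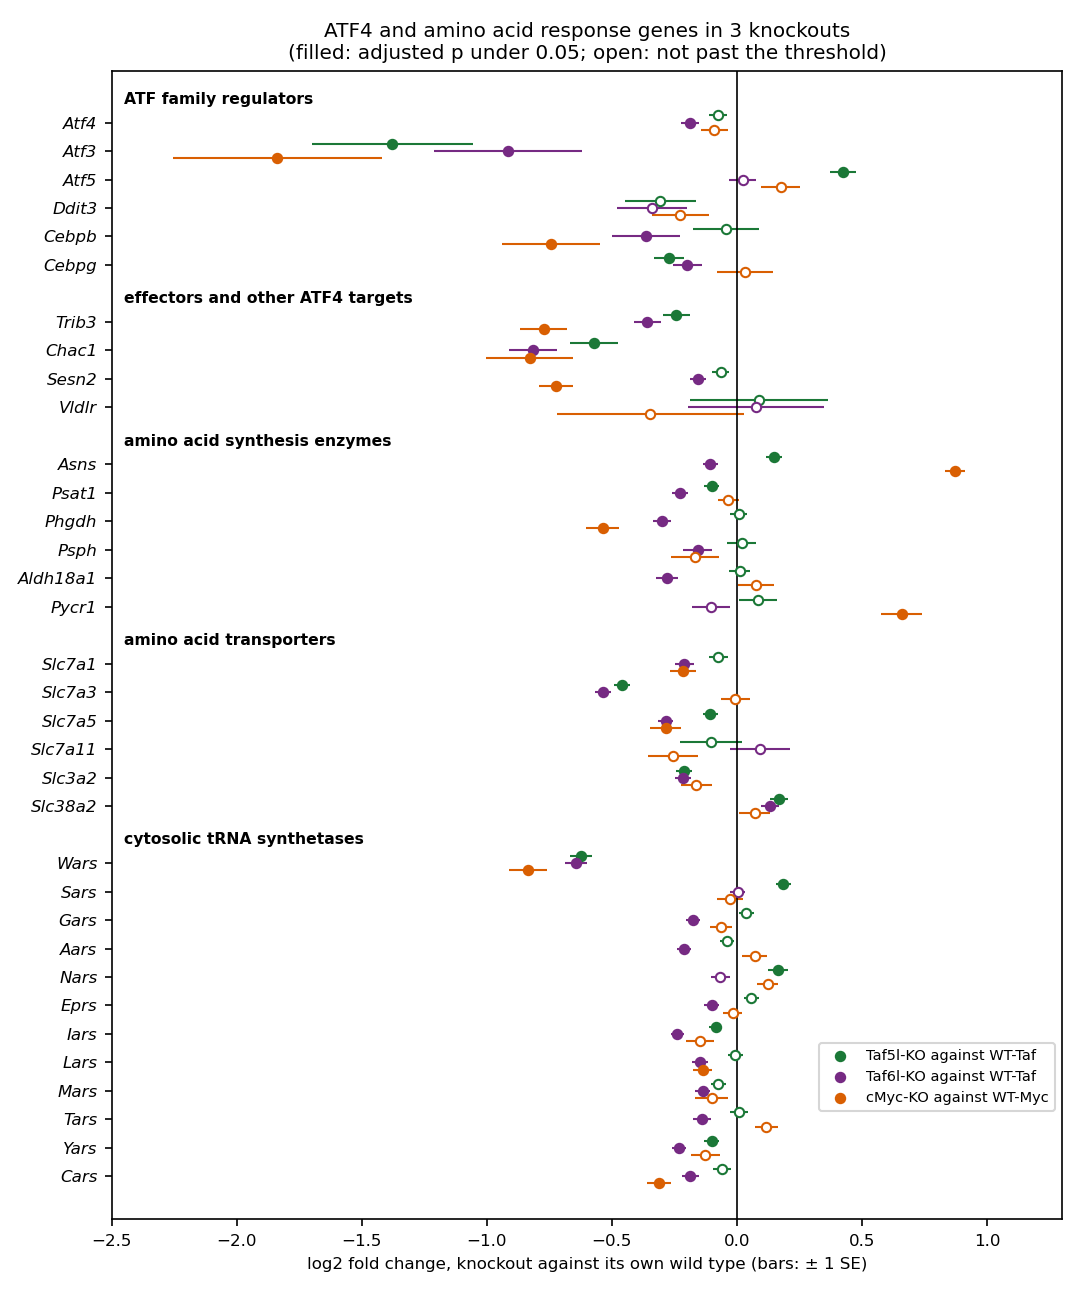
Log2 fold change (x axis, ± 1 SE) of the 34 members, in rows grouped by role, in Taf5l-KO (green), Taf6l-KO (purple) and cMyc-KO (orange) against their own wild types. Filled points passed an adjusted p of 0.05. Most purple points lie left of 0, where 26 of 34 fell, while Asns and Pycr1 stand to the right in cMyc-KO.

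Among the 6 transcription factors, the RNA of Atf4 itself differed little between groups. Atf4 (chromosome 15) was at 177, 185 and 178 CPM in WT-Taf, 169, 175 and 169.6 in Taf5l-KO and 150.4, 164 and 160.2 in Taf6l-KO. It was at 173, 179 and 186 CPM in WT-Myc and 173, 174 and 159 in cMyc-KO. The Taf6l-KO libraries were the lowest of the Taf experiment and overlapped neither other group, while the groups of the Myc experiment overlapped. Atf4 fell in Taf6l-KO by a log2 fold change of -0.19 ± 0.037 (adjusted p = 0.00107) and did not pass the test in Taf5l-KO (-0.075 ± 0.037, adjusted p = 0.139) or cMyc-KO (-0.090 ± 0.055, adjusted p = 0.245).

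Atf5, a relative of ATF4 that is also controlled at translation, was the factor that rose. It was at 29.98, 26.2 and 28.6 CPM in WT-Taf, 37.8, 37.8 and 37.8 in Taf5l-KO and 27.5, 29.3 and 29.2 in Taf6l-KO. All Taf5l-KO libraries were above all others of that experiment, and Taf6l-KO overlapped the wild type. The log2 fold change was 0.42 ± 0.053 (adjusted p = 3.02e-05) in Taf5l-KO, 0.023 ± 0.054 (adjusted p = 0.778) in Taf6l-KO and 0.18 ± 0.079 (adjusted p = 0.123) in cMyc-KO.

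Atf3, a stress-induced repressor, fell in all 3 knockouts from a level near the limit of detection. It had 23, 26 and 12 counts in WT-Taf, 8, 6 and 10 in Taf5l-KO and 12, 13 and 12 in Taf6l-KO. In the Myc experiment it had 17, 28 and 16 counts in WT-Myc and 5, 10 and 5 in cMyc-KO. As CPM, no knockout library reached the lowest library of its wild type. The log2 fold change was -1.38 ± 0.32 (adjusted p = 0.00443) in Taf5l-KO, -0.92 ± 0.30 (adjusted p = 0.0251) in Taf6l-KO and -1.84 ± 0.42 (adjusted p = 0.0117) in cMyc-KO. The Taf6l-KO call was lost without Taf6l-KO replicate 1 or 3 or WT-Taf replicate 1 or 2 (adjusted p 0.0812 to 0.107), and the cMyc-KO call was lost without WT-Myc replicate 2 (adjusted p = 0.0538).

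The genes of 2 C/EBP partners, Cebpb and Cebpg, were lower in some of the knockouts. Cebpb fell in Taf6l-KO (-0.36 ± 0.13, adjusted p = 0.0475) and cMyc-KO (-0.74 ± 0.20, adjusted p = 0.022). The first call was lost in each fit without a library except that without Taf6l-KO replicate 2 (adjusted p 0.0552 to 0.148), and the second in each except those without cMyc-KO replicate 1 or 3 (adjusted p 0.0518 to 0.0864). Cebpg, which forms heterodimers with ATF4, fell in Taf5l-KO (-0.27 ± 0.060, adjusted p = 0.00301) and Taf6l-KO (-0.20 ± 0.059, adjusted p = 0.0156), and was at 0.032 in cMyc-KO. The Taf5l-KO call of Cebpg was kept in 14 of 17 alternative runs and lost in the limma tests (adjusted p 0.213 to 0.301). Its Taf6l-KO call was kept in 11 of 17, with a loss without WT-Taf replicate 2 (adjusted p = 0.0856) among the others. Ddit3, which encodes CHOP, the factor linked to cell death under prolonged stress, passed the test in none, at -0.31, -0.34 and -0.23. Its levels were 2.71 to 4.33 CPM in the Taf experiment and 5.69 to 7.74 CPM in the Myc experiment.

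Effectors of the response were the lowest group in cMyc-KO, with a median log2 fold change of -0.75 over 4 genes. Of these 3 fell, beside 19.5% of all genes. Chac1 encodes an enzyme that degrades glutathione. It was at 10.8, 11.3 and 12.1 CPM in WT-Taf, 6.95, 8.67 and 7.31 in Taf5l-KO and 6.35, 6.45 and 6.57 in Taf6l-KO. It was at 2.800, 2.54 and 2.57 CPM in WT-Myc and 1.21, 1.496 and 1.72 in cMyc-KO. Every knockout library was below every library of its wild type. The log2 fold change was -0.57 ± 0.095 (adjusted p = 0.000358) in Taf5l-KO, -0.82 ± 0.096 (adjusted p = 1.29e-05) in Taf6l-KO and -0.83 ± 0.17 (adjusted p = 0.00838) in cMyc-KO.

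Trib3 encodes a pseudokinase that holds back AKT and ATF4. It was at 25.9, 26.4 and 24.3 CPM in WT-Taf, 21.96, 22.1 and 20.9 in Taf5l-KO and 19.3, 20.1 and 20.5 in Taf6l-KO. It was at 14.9, 15.99 and 15.8 CPM in WT-Myc and 10.1, 8.88 and 8.36 in cMyc-KO. All 3 knockouts lay below their wild types with no overlap, by -0.24 ± 0.055 (adjusted p = 0.00346), -0.36 ± 0.054 (adjusted p = 0.000135) and -0.77 ± 0.093 (adjusted p = 0.000648).

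Sesn2 encodes a leucine sensor that restrains mTORC1. It was at 175, 183 and 184 CPM in WT-Myc and 114, 115 and 98.5 in cMyc-KO. In the Taf experiment it was at 105, 101 and 102 CPM in WT-Taf, 98.9, 98.7 and 96.8 in Taf5l-KO and 89.97, 94.3 and 92.4 in Taf6l-KO. The cMyc-KO libraries were far below their wild type, by -0.72 ± 0.069 (adjusted p = 0.000214), whereas the Taf groups lay within a narrow band, at -0.066 ± 0.033 (adjusted p = 0.145) and -0.16 ± 0.033 (adjusted p = 0.00183). Vldlr, a lipoprotein receptor gene reported as an ATF4 target, was at 0.440 to 1.84 CPM in all libraries and passed no test.

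Of the 6 synthesis enzymes, 2 rose and 1 fell in cMyc-KO, 1 rose and 1 fell in Taf5l-KO, and 5 fell in Taf6l-KO. In Taf5l-KO the 16.7% higher and 16.7% lower were near the 17.4% and 15.9% of all genes. Over all genes 15.2% rose and 19.5% fell in cMyc-KO, and 18.2% fell in Taf6l-KO. Asns (chromosome 6) encodes asparagine synthetase, which makes asparagine from aspartate and glutamine. It was at 224, 221 and 219 CPM in WT-Myc and 399, 412 and 402 in cMyc-KO. In the Taf experiment it was at 344, 345 and 347 CPM in WT-Taf, 369.8, 391 and 388 in Taf5l-KO and 314, 325 and 324 in Taf6l-KO. No groups overlapped, with Taf5l-KO above the wild type and Taf6l-KO below it. Asns rose in cMyc-KO by 0.87 ± 0.040 (adjusted p = 1.41e-05) and in Taf5l-KO by 0.15 ± 0.031 (adjusted p = 0.00185), and fell in Taf6l-KO by -0.11 ± 0.031 (adjusted p = 0.0133), a call lost without Taf6l-KO replicate 1 (adjusted p = 0.0561) and with library totals (adjusted p = 0.449).

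Pycr1, the last enzyme of proline synthesis, also rose in cMyc-KO. It was at 10.1, 9.200 and 8.92 CPM in WT-Myc and 14.6, 15.4 and 14.6 in cMyc-KO, groups that did not overlap, a log2 fold change of 0.66 ± 0.082 (adjusted p = 0.000763). It did not pass the test in Taf5l-KO (0.083 ± 0.076, adjusted p = 0.446) or Taf6l-KO (-0.10 ± 0.076, adjusted p = 0.32), where the libraries overlapped the wild type. Pycr1 lies on chromosome 11, of which 508 of 1300 genes rose and 84 fell in Taf6l-KO, with a median log2 fold change of 0.16, and the part of that in its value was not tested. Aldh18a1, which starts proline synthesis from glutamate, fell in Taf6l-KO (-0.28 ± 0.043, adjusted p = 0.000149) and was at 0.074 in cMyc-KO, not past the threshold.

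The 3 enzymes of serine synthesis were not raised in any knockout. Phgdh, the first of them, was at 93.9, 87.8 and 94.6 CPM in WT-Myc and 64.8, 66.99 and 58.6 in cMyc-KO. In the Taf experiment it was at 133, 135 and 133 CPM in WT-Taf, 136, 136 and 130.2 in Taf5l-KO and 103, 111 and 111 in Taf6l-KO. Taf5l-KO overlapped its wild type, and the other 2 knockouts were lower in every library. Phgdh fell in cMyc-KO (-0.54 ± 0.066, adjusted p = 0.000739) and in Taf6l-KO (-0.30 ± 0.035, adjusted p = 1.38e-05), and was at 0.0065 in Taf5l-KO. Psat1, the second, fell in Taf5l-KO (-0.10 ± 0.031, adjusted p = 0.022) and Taf6l-KO (-0.23 ± 0.031, adjusted p = 5.71e-05) and was at -0.034 in cMyc-KO. Psph, the last, fell in Taf6l-KO (-0.16 ± 0.058, adjusted p = 0.0448). The call of Psat1 in Taf5l-KO was lost without WT-Taf replicate 1, WT-Taf replicate 2 or Taf5l-KO replicate 1 (adjusted p 0.0551 to 0.0945), and that of Psph without Taf6l-KO replicate 2 or WT-Taf replicate 1 or 2 (adjusted p 0.128 to 0.177).

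**Figure D2:**
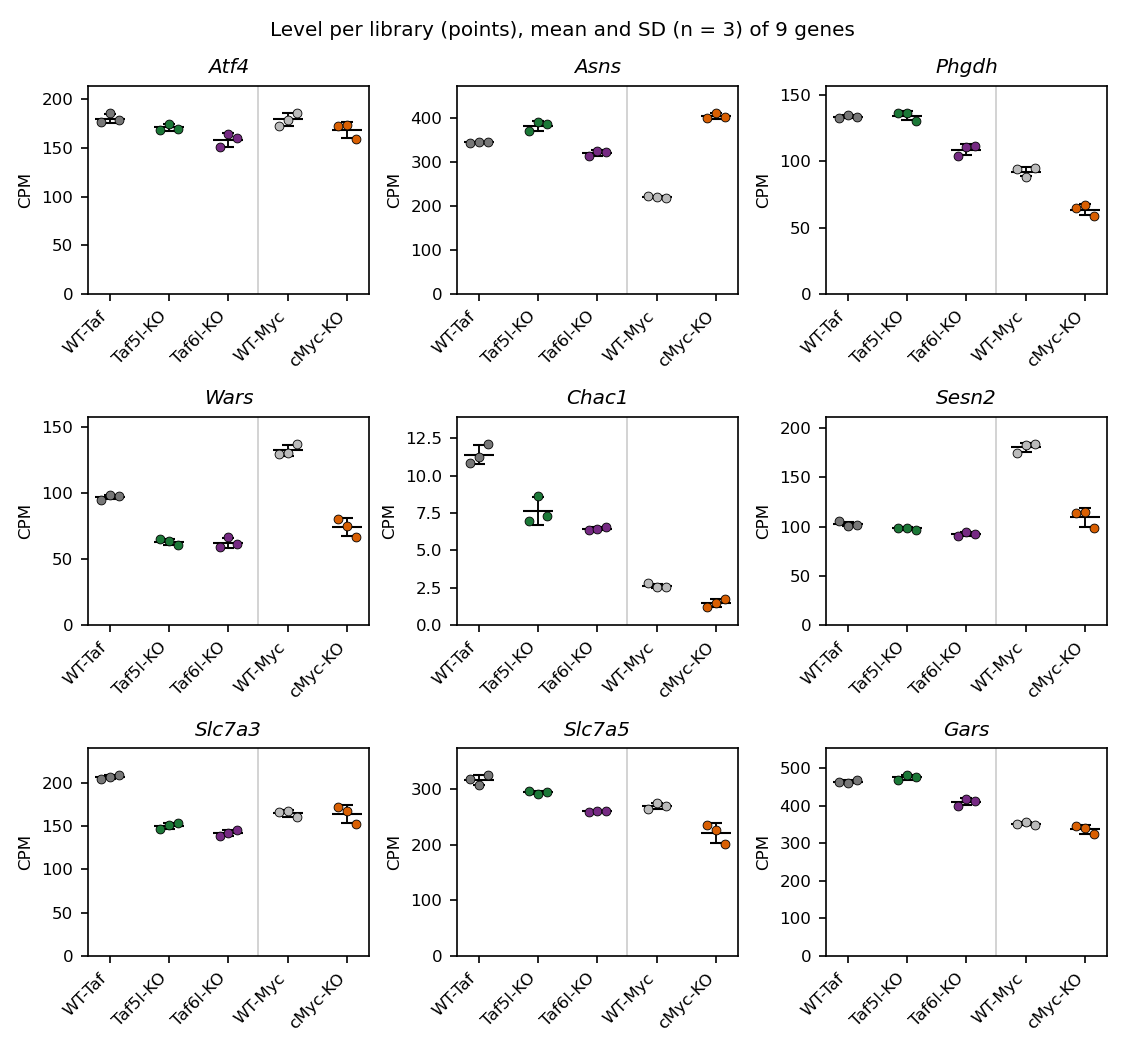
Level in CPM (y axis from 0) of 9 members in each of the 15 libraries (points), with mean and SD (n = 3) in black, for the 3 groups of the Taf experiment left of the grey line and the 2 of the Myc experiment right of it. Wars and Chac1 are below their wild type in all 3 knockouts, and Asns is at 399 CPM or more in cMyc-KO against 224 or less in WT-Myc.

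Of the 6 transporters, 3 fell and 1 rose in Taf5l-KO, 4 fell and 1 rose in Taf6l-KO and 2 fell in cMyc-KO. Over all genes 15.9%, 18.2% and 19.5% fell and 17.4%, 19.1% and 15.2% rose, in the same order. Slc7a3 encodes a carrier of arginine and lysine. It was at 204, 207 and 209 CPM in WT-Taf, 146, 151 and 154 in Taf5l-KO and 139, 143 and 146 in Taf6l-KO. It was at 166, 168 and 160.2 CPM in WT-Myc and 172, 167 and 153 in cMyc-KO. Both Taf knockouts were below the wild type with a wide gap, and the Myc groups overlapped. Slc7a3 fell by -0.46 ± 0.032 (adjusted p = 1.03e-07) in Taf5l-KO and -0.54 ± 0.032 (adjusted p = 1.64e-08) in Taf6l-KO, and was at -0.0062 in cMyc-KO. The gene is on the X chromosome, of which 177 of 564 genes fell and 64 rose in Taf5l-KO (median -0.13) and 193 fell and 73 rose in Taf6l-KO (median -0.097), and the part of that was not tested.

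Slc7a5 and Slc3a2 encode the light and heavy chains of the large neutral amino acid exchanger LAT1. Slc7a5 was at 318, 307 and 324 CPM in WT-Taf, 296, 291 and 295 in Taf5l-KO and 259, 261 and 259 in Taf6l-KO. It was at 264, 274 and 268 CPM in WT-Myc and 234, 227 and 200.5 in cMyc-KO. Each knockout lay below its wild type without overlap, and it fell by -0.11 ± 0.030 (adjusted p = 0.0126), -0.29 ± 0.030 (adjusted p = 3.79e-06) and -0.29 ± 0.063 (adjusted p = 0.0106). The first call was kept in 12 of 17 alternative runs. It was lost without WT-Taf replicate 3 (adjusted p = 0.0657), with all 15 libraries in a single fit (0.122) and in the limma tests (0.19 to 0.231). The cMyc-KO call was kept in 13 of 16. Slc3a2 fell in Taf5l-KO (-0.21 ± 0.032, adjusted p = 0.000166) and Taf6l-KO (-0.21 ± 0.032, adjusted p = 0.000119) and was at -0.16 ± 0.062 (adjusted p = 0.0795) in cMyc-KO.

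Slc38a2, a carrier of small neutral amino acids such as glutamine and alanine, was the transporter that rose. It was at 276, 290.0 and 280.0 CPM in WT-Taf, 313, 309 and 329 in Taf5l-KO and 321, 305 and 302 in Taf6l-KO. The knockouts were above the wild type in every library, by 0.17 ± 0.035 (adjusted p = 0.00214) and 0.13 ± 0.035 (adjusted p = 0.00863), and cMyc-KO was at 0.071, not past the threshold. The Taf6l-KO call was lost in the limma tests and with all 15 libraries in a single fit. Slc7a1, another carrier of arginine and lysine, fell in Taf6l-KO (-0.21 ± 0.038, adjusted p = 0.00053) and cMyc-KO (-0.21 ± 0.051, adjusted p = 0.0141), the second lost without cMyc-KO replicate 2 or WT-Myc replicate 1 or 2 (adjusted p 0.0553 to 0.0644). Slc7a11, which imports cystine for glutathione synthesis, was at 5.61 to 7.76 CPM in the Taf experiment and 13.6 to 17.9 CPM in the Myc experiment and passed no test, with values of -0.10, 0.091 and -0.25.

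The 12 tRNA synthetases among the members, which load each tRNA with its amino acid, fell broadly but by little in Taf6l-KO. There 10 of 12 fell and none rose, beside 18.2% and 19.1% of all genes, with a median log2 fold change of -0.16. In Taf5l-KO, 3 fell and 2 rose with a median of -0.024, and in cMyc-KO 3 fell with a median of -0.082. Over all genes 15.9% fell and 17.4% rose in Taf5l-KO, and 19.5% fell in cMyc-KO. With library totals the medians were -0.092 in Taf6l-KO, where the calls of Eprs, Lars, Mars and Tars were lost, -0.046 in Taf5l-KO and -0.041 in cMyc-KO. The Taf5l-KO median was -0.040 without Taf5l-KO replicate 3 and -0.012 without Taf5l-KO replicate 2, and that of cMyc-KO was -0.017 without cMyc-KO replicate 3.

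Wars, the tryptophan enzyme, stood apart from the other 11. It was at 94.8, 98.3 and 97.3 CPM in WT-Taf, 65.00, 63.3 and 60.5 in Taf5l-KO and 58.98, 66.3 and 60.95 in Taf6l-KO. It was at 129, 130.2 and 137 CPM in WT-Myc and 80.5, 75.04 and 66.6 in cMyc-KO. All knockout libraries were well below their wild types, by -0.62 ± 0.044 (adjusted p = 1.3e-07) in Taf5l-KO, -0.64 ± 0.044 (adjusted p = 5.89e-08) in Taf6l-KO and -0.84 ± 0.075 (adjusted p = 0.000158) in cMyc-KO. The other 11 synthetases lay between -0.10 and 0.19 in Taf5l-KO, between -0.24 and 0.0023 in Taf6l-KO and between -0.31 and 0.12 in cMyc-KO.

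The glycine enzyme Gars was at 462, 459.7 and 467 CPM in WT-Taf, 469, 481 and 476 in Taf5l-KO and 399, 418 and 413 in Taf6l-KO. Taf6l-KO was the lowest group with no overlap, and Taf5l-KO the highest. Gars fell in Taf6l-KO (-0.18 ± 0.029, adjusted p = 0.000269) and was at 0.037 ± 0.029 (adjusted p = 0.358) in Taf5l-KO. In Taf6l-KO the alanine enzyme Aars fell by -0.21 ± 0.028, the isoleucine enzyme Iars by -0.24 ± 0.027 and the tyrosine enzyme Yars by -0.23 ± 0.030. The cysteine enzyme Cars (-0.19), the leucine enzyme Lars (-0.15), the threonine enzyme Tars (-0.14), the methionine enzyme Mars (-0.14) and Eprs (-0.10), a single protein for glutamate and proline, also fell there.

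The serine enzyme Sars and the asparagine enzyme Nars rose in Taf5l-KO. Sars was at 209, 211 and 208 CPM in WT-Taf, 236, 235 and 242 in Taf5l-KO and 204, 213 and 213 in Taf6l-KO, so that Taf5l-KO was above both other groups. Its log2 fold change was 0.19 ± 0.030 (adjusted p = 0.000292) in Taf5l-KO and 0.0023 in Taf6l-KO. Nars was at 0.16 ± 0.040 (adjusted p = 0.00528) in Taf5l-KO and -0.066 ± 0.040 (adjusted p = 0.216) in Taf6l-KO. Its Taf5l-KO libraries were spread, at 325.9, 344.5 and 371.1 CPM, against 310.2, 309.9 and 309.3 in WT-Taf. The Taf5l-KO call of Nars was lost in the limma tests (adjusted p 0.0725 to 0.0956). The small falls of Iars (-0.085) and Yars (-0.10) in Taf5l-KO were both lost when replicate 2 of either group was left out, and that of Iars also without WT-Taf replicate 1 or 3 (adjusted p 0.0579 to 0.0814 for Iars and 0.0654 to 0.0769 for Yars). In cMyc-KO, Cars fell by -0.31 ± 0.047 (adjusted p = 0.00187) and Lars by -0.14 ± 0.039 (adjusted p = 0.0287), the latter lost without any library except cMyc-KO replicate 3 (adjusted p 0.0707 to 0.122).

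The 2 Taf knockouts were then set directly against each other, which leaves the shared wild type out of the difference. In Taf6l-KO 19 of 34 members were lower than in Taf5l-KO and none higher, beside 10.1% and 8.55% of all genes, with a median log2 fold change of -0.14 against 0.0051 over all genes. These were 10 of 12 synthetases, 5 of 6 synthesis enzymes, 2 of 6 transporters, 2 of 6 factors and none of 4 effectors. The largest were Atf5 (-0.40 ± 0.052, adjusted p = 0.000148), Phgdh (-0.31 ± 0.035, adjusted p = 6.64e-05), Aldh18a1 (-0.29 ± 0.043, adjusted p = 0.000356) and Asns (-0.25 ± 0.031, adjusted p = 8.53e-05). Among synthetases the calls ran from -0.13 for Cars to -0.23 for Nars, and Wars was at -0.021 and Mars at -0.062, not past the threshold.

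This difference, too, depended on scaling. With library totals 6 of 34 members were lower. Of the 10 synthetase calls, 8 were then lost (Aars, Cars, Eprs, Iars, Lars, Sars, Tars and Yars), leaving Gars and Nars. The share of rises among all calls went from 45.8% to 83.1% and the median of all genes moved from 0.0051 to 0.097. Genes of chromosome 11 rose in Taf6l-KO against Taf5l-KO in 541 of 1300 cases and fell in 19. The call of Atf4 was lost without any library except Taf6l-KO replicate 2 (adjusted p 0.0515 to 0.179), and that of Psph without any Taf5l-KO library or Taf6l-KO replicate 2 (0.0772 to 0.161). Cars lost its call without Taf5l-KO replicate 2 or Taf6l-KO replicate 1 or 2 (0.0635 to 0.0854), Slc7a1 without Taf6l-KO replicate 2 or 3 (0.0777 to 0.106) and Tars without Taf6l-KO replicate 3 (0.0626).

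**Figure D3:**
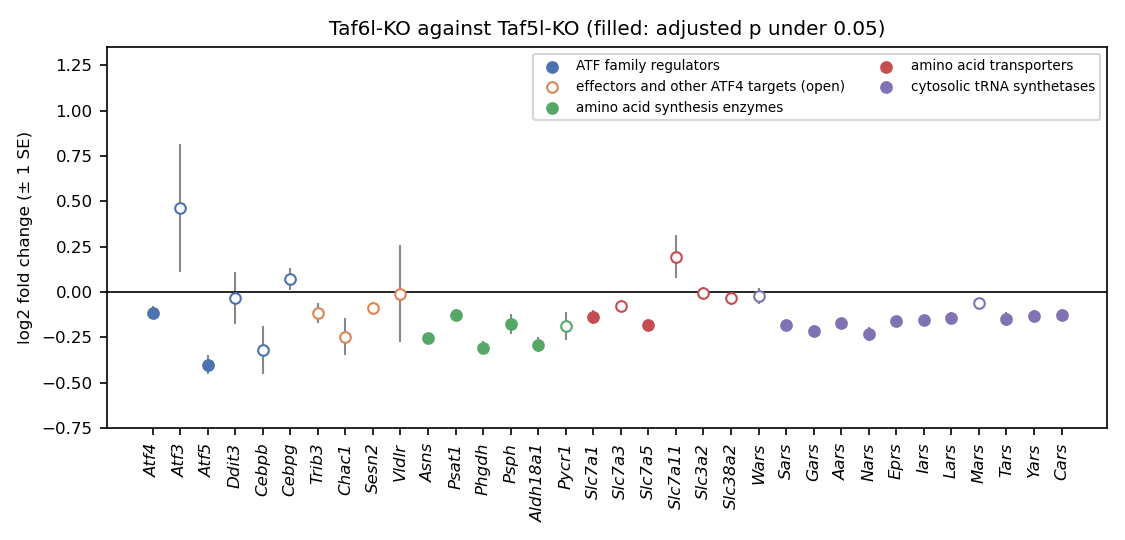
Log2 fold change of Taf6l-KO against Taf5l-KO (y axis, ± 1 SE) for each of the 34 members (x axis), coloured by role, with filled points for an adjusted p under 0.05. The synthetases form a narrow band below 0 of which 10 of 12 passed the test (2 with library totals), while Wars lies near 0.

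Whether the Taf knockouts and the Myc knockout differed in their effects was tested as an interaction over all 15 libraries. The effect of Taf5l-KO was higher than that of cMyc-KO in 6 members (17.6%) and lower in 5 (14.7%), near the 15.7% and 16.4% of all genes. For Taf6l-KO it was 2 higher and 10 lower, beside 17.1% and 17.7%. With library totals the share of rises among all calls of the latter went from 49.2% to 60.8%.

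Asns had the largest differences, of -0.77 ± 0.047 (adjusted p = 1e-08) for Taf5l-KO and -1.02 ± 0.047 (adjusted p = 3.31e-10) for Taf6l-KO. For Pycr1, which rose in cMyc-KO and passed no test in the Taf knockouts, the differences were -0.62 ± 0.11 (adjusted p = 0.000401) and -0.80 ± 0.11 (adjusted p = 3.18e-05). Slc7a3 was at -0.50 ± 0.067 (adjusted p = 3.53e-05) and -0.57 ± 0.067 (adjusted p = 7.26e-06). Sesn2 went the other way, at 0.61 ± 0.081 (adjusted p = 2.8e-05) and 0.53 ± 0.081 (adjusted p = 0.000105), as did Trib3 at 0.49 ± 0.10 (adjusted p = 0.00147) and 0.38 ± 0.10 (adjusted p = 0.00823). No difference between the effects passed the test for Wars, at 0.17 ± 0.094 (adjusted p = 0.188) and 0.15 ± 0.094 (adjusted p = 0.231), or for Chac1, at 0.21 ± 0.17 (adjusted p = 0.426) and -0.032 ± 0.19 (adjusted p = 0.931), which does not show that they were equal. Phgdh was at 0.50 ± 0.077 (adjusted p = 0.00012) for Taf5l-KO. Of the smaller differences with Taf5l-KO, those of Cebpb, Cebpg, Sars and Tars were lost in 7, 6, 10 and 11 of 12 fits without a library, and with Taf6l-KO those of Eprs and Gars in 11 and 10. Since each experiment held its own knockouts, a difference between knockouts and one between experiments cannot be told apart.

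Other genes of the pathway were read from 8 further lists, whose counts stand beside 15.9%, 18.2% and 19.5% of all genes lower and 17.4%, 19.1% and 15.2% higher in Taf5l-KO, Taf6l-KO and cMyc-KO. Of 16 other amino acid and one-carbon enzymes, 8 fell in Taf5l-KO, 11 in Taf6l-KO and 6 in cMyc-KO, and 1, 3 and 1 rose. Glul, glutamine synthetase, fell in Taf5l-KO (-0.30) and Taf6l-KO (-0.38). Cth, which makes cysteine from cystathionine, rose in Taf5l-KO (0.38), Taf6l-KO (0.11) and cMyc-KO (0.58). Ass1, of arginine synthesis, fell in Taf5l-KO (-0.28), Taf6l-KO (-0.23) and cMyc-KO (-0.51).

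Of 15 other amino acid transporters, 5 fell in each knockout and 0, 2 and 0 rose in Taf5l-KO, Taf6l-KO and cMyc-KO. Slc38a1, a glutamine carrier, fell in Taf5l-KO (-0.38) and Taf6l-KO (-0.50). Slc1a5, a neutral amino acid exchanger, fell in Taf5l-KO (-0.21), Taf6l-KO (-0.54) and cMyc-KO (-0.49). The largest falls of the list were in cMyc-KO, Slc7a7 (-1.77 ± 0.11, adjusted p = 4.03e-05) and Slc1a4 (-1.55 ± 0.13, adjusted p = 0.000118). Slc7a7 is on chromosome 14, of which 237 of 483 genes fell and 34 rose in cMyc-KO (median -0.32), and the part of that was not tested.

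Of 10 other reported ATF4 targets, 5 fell and none rose in cMyc-KO. Ddit4, an inhibitor of mTORC1, fell by -2.04 ± 0.069 (adjusted p = 5.28e-06), and Stc2, a secreted glycoprotein gene, by -2.18 ± 0.098 (adjusted p = 1.2e-05). In Taf6l-KO Ddit4 rose (0.44). In Taf5l-KO 3 fell and 1 rose, and in Taf6l-KO 4 fell and 2 rose. Eif4ebp1, which encodes a translation repressor, fell in Taf5l-KO (-0.25) and Taf6l-KO (-0.44), Nupr1 rose in Taf5l-KO (0.57), and Sqstm1, on chromosome 11, rose in Taf6l-KO (0.36) and fell in cMyc-KO (-0.31).

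Of 11 other cytosolic synthetases and scaffold proteins, 3 fell in Taf5l-KO, 5 in Taf6l-KO and 4 in cMyc-KO, and 1 rose in each. Their median log2 fold change in Taf6l-KO was -0.034, where that of the 12 synthetases among the members was -0.16. Qars, the glutamine enzyme, fell in Taf5l-KO (-0.085) and Taf6l-KO (-0.24) and rose in cMyc-KO (0.17), and Farsa, a subunit of the phenylalanine enzyme, fell in Taf6l-KO (-0.16) and cMyc-KO (-0.28). Of 17 mitochondrial synthetases, 4, 4 and 1 fell and 3, 2 and 1 rose, in the same order, and the counts in the Taf knockouts are near the shares over all genes. Lars2 rose in Taf5l-KO (1.59 ± 0.18, adjusted p = 1.29e-05) and Taf6l-KO (1.28 ± 0.18, adjusted p = 7.52e-05) and was at 0.013 ± 0.43 in cMyc-KO.

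The XBP1 and ATF6 branches of the unfolded protein response raise chaperones of the endoplasmic reticulum. Of their 18 genes, 9 rose and 2 fell in Taf5l-KO, 9 rose and 2 fell in Taf6l-KO, and 6 rose and 5 fell in cMyc-KO. The chaperone gene Hspa5 rose in Taf5l-KO (0.23) and Taf6l-KO (0.23), and Pdia6, a protein disulfide isomerase gene, in all 3 (0.30, 0.31 and 0.19). Hsp90b1, which encodes the chaperone GRP94, fell in all 3 (-0.24, -0.43 and -0.57) and was lower in Taf6l-KO than in Taf5l-KO (-0.19). Xbp1 fell in cMyc-KO (-0.96) and rose in Taf6l-KO (0.19), and Sel1l fell by -0.53, -0.41 and -1.09. Among 15 genes of eIF2 kinases, phosphatases and eIF2B, 3 rose and 3 fell in Taf5l-KO, 2 and 3 in Taf6l-KO, and 4 and 1 in cMyc-KO. Ppp1r15b, a regulator of eIF2 dephosphorylation, fell in Taf5l-KO (-0.22) and Taf6l-KO (-0.30), and Eif2ak2, which encodes the kinase PKR, fell by -0.37, -0.37 and -0.42.

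Of 14 mTORC1 amino acid sensing genes, 5 rose and 2 fell in Taf5l-KO, 6 and 1 in Taf6l-KO, and 2 and 4 in cMyc-KO. Gatsl3, also called CASTOR1, a sensor of arginine, rose in Taf5l-KO (0.36 ± 0.061, adjusted p = 0.000385) and Taf6l-KO (0.63 ± 0.059, adjusted p = 1.38e-06) and fell in cMyc-KO (-2.15 ± 0.16, adjusted p = 6.64e-05). Gatsl3 and Rptor, which rose in Taf5l-KO (0.11) and Taf6l-KO (0.34), lie on chromosome 11, as do Stc2, Slc1a4, Sqstm1 and Xbp1. In Taf6l-KO 508 of 1300 genes of that chromosome rose and 84 fell, with a median log2 fold change of 0.16. The part of that in the values of these genes was not tested.

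**Figure D4:**
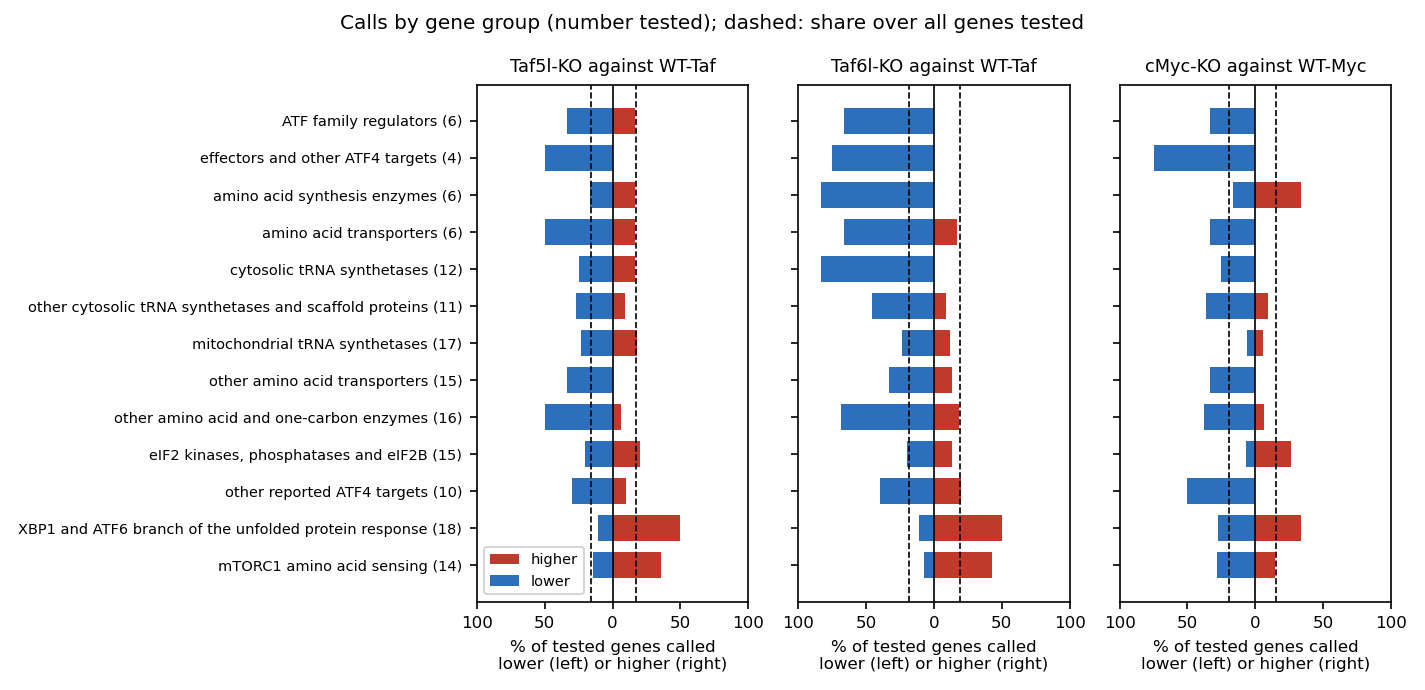
Share of tested genes called lower (blue, left) or higher (red, right), in percent, for the 5 roles of the members and the 8 other lists (number tested in parentheses), in Taf5l-KO, Taf6l-KO and cMyc-KO. Dashed lines mark the shares over all genes tested, such as 18.2% lower in Taf6l-KO, where 10 of 12 synthetases and 5 of 6 synthesis enzymes fell.

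Per kilobase of the longest annotated transcript, the members spanned a wide range of levels in WT-Taf. Gars was highest with 194.5 ± 1.69 CPM per kb (SD, n = 3), followed by Asns with 171 ± 0.673, Psat1 with 154 ± 3.52 and Eprs with 142 ± 0.876, and Atf4 was eighth with 89.2 ± 2.30. Slc7a5, seventh with 89.98 ± 2.503, and Atf4 did not differ beyond their SDs. The transcript length in use was not measured. In WT-Myc the order was headed by Eprs (150.1 ± 1.81) and Gars (148 ± 1.58), which did not differ beyond their SDs, with Asns next (109.6 ± 1.37). In cMyc-KO Asns was first, with 201 ± 3.16 CPM per kb. The deposited FPKM gave another order, so these ranks depend on the length used. By FPKM, WT-Taf had Asns at rank 1, Psat1 at 2, Eprs at 11, Gars at 13 and Atf4 at 15. In WT-Myc, Asns was at rank 1, Eprs at 9 and Gars at 15. For 24 of 34 members, FPKM implied a length under 0.5 of the longest transcript.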

How the data were processed

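RNA of 15 libraries (5 groups of 3) was depleted of ribosomal RNA and made into directional libraries, per the labels' protocols. The deposited estimated counts per gene, all whole numbers, were made by the authors with Salmon 0.8.2 and DESeq2 1.14.1 on mm9, as named without roles in the submitters' processing notes. Whether counting used strand is not stated in any source used here. FPKM values deposited by the authors served only as an alternative, and the TPM table was not used because its header names do not match the libraries' labels.

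Counts were filtered (filterByExpr), TMM-scaled and fitted with edgeR 4.0.16 in R 4.3.3 by quasi-likelihood, the 9 Taf libraries in 1 fit, the 6 Myc libraries in another and all 15 for differences between effects, with Benjamini-Hochberg adjustment over all genes. The SE is the log2 fold change divided by the square root of F. The alternatives tried were DESeq2 1.42.0, scaling by RLE or by library totals, fits with no filter, fits blocked on the replicate number, fits that left out each library, other sets of libraries, and limma 3.58.1 on log2 FPKM with pseudocounts of 1 and 0.1 (mean FPKM of at least 0.5, or no filter). A fit of protein-coding genes only was chosen after seeing the data. The fits were tested on simulated data with changes larger than most of those of the members. The calls of small changes were not tested by this. Biological coefficients of variation were 4.23% (Taf) and 10.2% (Myc).

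All 34 members and the targeted genes are named, and other genes are taken from the up to 3 called per other list and comparison with the smallest p. The members and lists were chosen by known role, with earlier results of these data known; no member was kept or dropped by its value here. Chromosomes and transcript lengths come from GENCODE M21 and promoters from RefSeq (GRCm38.p6). Figures were drawn with matplotlib 3.10.9.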

Additional observations from a re-analysis of the deposited data

Results flagged for a closer look

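The knockouts differed from one another in 42 tests of members, each by an adjusted p (edgeR) under 0.05 for the difference itself. For Taf6l-KO against Taf5l-KO, 55.9% of members were lower and 0% higher, beside 10.1% and 8.55% of all genes. Between the effects of Taf5l-KO and cMyc-KO, 14.7% were lower and 17.6% higher, near the 16.4% and 15.7% of all genes. Between those of Taf6l-KO and cMyc-KO, 29.4% were lower and 5.88% higher, beside 17.7% and 17.1%. In Taf6l-KO against Taf5l-KO, 19 members differed, with log2 fold changes of -0.11 for Atf4, -0.40 for Atf5, -0.25 for Asns, -0.13 for Psat1, -0.31 for Phgdh, -0.18 for Psph, -0.29 for Aldh18a1, -0.14 for Slc7a1, -0.18 for Slc7a5, -0.18 for Sars, -0.21 for Gars, -0.17 for Aars, -0.23 for Nars, -0.16 for Eprs, -0.15 for Iars, -0.14 for Lars, -0.15 for Tars, -0.13 for Yars and -0.13 for Cars.

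The log2 effect of Taf5l-KO differed from that of cMyc-KO by 0.66 for Cebpb, -0.35 for Cebpg, 0.49 for Trib3, 0.61 for Sesn2, -0.77 for Asns, 0.50 for Phgdh, -0.62 for Pycr1, -0.50 for Slc7a3, 0.17 for Sars, -0.15 for Tars and 0.21 for Cars.

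The log2 effect of Taf6l-KO differed from that of cMyc-KO by 0.38 for Trib3, 0.53 for Sesn2, -1.02 for Asns, -0.23 for Psat1, -0.39 for Aldh18a1, -0.80 for Pycr1, -0.57 for Slc7a3, -0.15 for Gars, -0.32 for Aars, -0.23 for Nars, -0.13 for Eprs and -0.30 for Tars. Small non-coding RNAs took a larger share of counts in all Taf libraries than in all Myc libraries, and their part in these differences was not tested.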

How the results depend on the processing

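Over the alternatives, the members that kept their call in all of them were 5 of 11 lower and 3 of 5 higher in Taf5l-KO, 14 of 26 lower and 0 of 1 higher in Taf6l-KO, 4 of 11 and 2 of 2 in cMyc-KO, and 5 of 19 in Taf6l-KO against Taf5l-KO. No result took the opposite sign while called, and the cause of each change was not tested. With library totals, the synthetase median was -0.046 in Taf5l-KO, -0.092 in Taf6l-KO and -0.041 in cMyc-KO. The transporter median was -0.14 in Taf6l-KO and -0.15 in cMyc-KO, the synthesis median -0.12 in Taf6l-KO, the members lower 17 in Taf6l-KO and 6 in Taf6l-KO against Taf5l-KO, and those higher 4 in cMyc-KO. With all 15 libraries in a fit, 0 members were higher in Taf6l-KO and 5 in cMyc-KO, where the transporter median was -0.16. That fit called 1647 genes between Taf6l-KO and Taf5l-KO, and DESeq2 1942, against 2938. With protein-coding genes only, 4 members were higher in cMyc-KO.

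The limma tests on log2 FPKM, with pseudocounts of 1 and 0.1 and without a filter, called 2633, 2663 and 2216 genes in Taf5l-KO (5234 in edgeR), 3118, 3124 and 2653 in Taf6l-KO (5861), 3164, 3173 and 2705 in cMyc-KO (5064) and 926, 923 and 722 in Taf6l-KO against Taf5l-KO. Members lower were 5, 5 and 5 in Taf5l-KO, 6, 5 and 5 in cMyc-KO and 12, 12 and 10 in the last comparison, and without a filter 3 were higher in Taf5l-KO and 17 lower in Taf6l-KO, where 0 were higher in all. In cMyc-KO the synthetase median was -0.024 in all, and the transporter median -0.14, -0.15 and -0.14.

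Leaving out each library gave transporter medians of -0.23 to -0.20 in Taf6l-KO and -0.20 to -0.14 in cMyc-KO, and synthetase medians of -0.099 to -0.017 in cMyc-KO. In cMyc-KO 2 to 4 members were higher and 7 to 12 lower, with 3402 to 5923 genes called. The difference of Taf5l-KO and cMyc-KO effects had 3 to 6 members lower, and 3 with RLE scaling, DESeq2 or the replicate block. The replicate block left 24 members lower in Taf6l-KO and 8 in cMyc-KO, and 3139 genes called in cMyc-KO. Deviations of log2 CPM from the mean of each group, not whole libraries, were correlated between same-numbered libraries, at -0.504 to 0.0668. Such deviations cancel within a group, so negative values are partly built in. In 2 of 12 cases the own number correlated best, so the numbers were not taken to pair libraries. Atf3, with 5 to 28 counts per library, is limited by depth.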
